A study of Drosophila melanogaster with 4 samples.

Results

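Clusters of H3K9ac that were listed for the replicate set, but that neither single ChIP library listed at the same place, are described here. They were chosen by measured overlap, as the clusters of the replicate-set list that overlap no cluster of replicate 1 or replicate 2 by 1 bp or more, on any sequence. Of 10096 clusters in that list, 2745 met the rule (27.2%), and they are called set-only clusters below. The overlap that chose them comes from the same ChIP libraries as their scores and positions, so the values are given as descriptions, with no test.

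The data are ChIP-seq enrichment lists from the fruit fly Drosophila melanogaster. Chromatin came from whole larvae of the last (3rd) instar, of the strain Oregon-R, labelled wild type, and was fixed with formaldehyde. All 4 samples share this strain, genotype and stage, and no age beyond the stage is given. There were 2 ChIP libraries and 2 input libraries, and no mutant or treatment was compared. Whole larvae hold many tissues, so a weak region can be weakly marked in many cells or strongly marked in few, and the 2 cannot be told apart in bulk chromatin. Whether the replicates came from separate collections is not stated.

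Acetylation of lysine 9 of histone H3 is laid down by acetyltransferases such as Gcn5 and removed by histone deacetylases. It neutralises a charge on the histone tail and is read by bromodomain proteins. In flies, as in other animals, it is known mainly from the promoters and first nucleosomes of transcribed genes, and it is scarce in pericentric heterochromatin. Positions refer to release 5 of the FlyBase genome, whereas the gene table at hand follows release 6. Clusters were therefore not assigned to genes, and no DNA sequence is shown.

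The replicate 1 list held 6545 clusters over 20.9 Mb, the replicate 2 list 7629 over 22.3 Mb and the replicate-set list 10096 over 30.95 Mb. Read depth is unknown. The score is the authors' value per cluster and behaves as a log2 ratio with an unstated denominator. Among the 40 most frequent scores of the set-only clusters, 636 of 780 pairwise differences equalled the log2 of some whole-number ratio, against 0 under natural log or log10. At 4445 places where all 3 lists held exactly 1 cluster, the replicate-set score differed from the mean of the 2 replicates by -0.06 ± 0.06 (SD over places), and was the lower one at 92.5% of them.

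Set-only clusters were short and mostly weak, with a few exceptions at the very top of the list. Together they covered 3.82 Mb. Their lengths ran from 1001 bp to 4526 bp, with a median of 1261 bp and quartiles of 1106 bp and 1526 bp. Their median score was 0.35, which as a ratio would be 1.27, and the quartiles were 0.30 and 0.39. Only 68 (2.48%) scored above 0.5. Clusters of the replicate set that overlapped both replicate lists had medians of 0.80 and 3458 bp. Of the set-only clusters, 236 (8.60%) lay under the 5th percentile of the replicate-set list, 0.26. By definition 5% of that whole list lies there, so set-only clusters were over-represented among its lowest scores. This was not particular to them. Clusters that overlapped replicate 1 only had a median score of 0.34 and a 5th percentile of 0.19. Those that overlapped replicate 2 only had 0.36 and 0.24, so both 5th percentiles also lay under 0.26.

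Many set-only clusters were shorter than any cluster of the replicate lists. No cluster of either replicate list was shorter than 1301 bp, and 1511 of the set-only clusters (55.0%) were shorter than that. At the shortest length in the list, 1001 bp, 80 of 89 clusters were set-only. Of all replicate-set clusters from 1011 to 1100 bp, 90.5% were set-only, and of those from 1101 to 1300 bp, 84.1% were. The share was 45.2% from 1301 to 2000 bp and 4.08% from 2001 to 5000 bp.

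At matched length up to 2000 bp, scores of the set-only clusters lay among those of clusters that a replicate did list. From 1301 to 2000 bp, the 1044 set-only clusters had a median score of 0.32 with quartiles of 0.28 and 0.36. In the same length range, 352 clusters that overlapped replicate 1 only had a median of 0.30. Another 683 that overlapped replicate 2 only had a median of 0.33, and 231 that overlapped both had a median of 0.31. The 4 medians lay within 0.03 of each other, less than the interquartile range of any one group. Above 2000 bp, only clusters that overlapped both replicates parted from the rest. From 2001 to 5000 bp, the 190 set-only clusters had a median score of 0.36. The medians were 0.37 for replicate 1 only, 0.39 for replicate 2 only and 0.80 for the 3718 that overlapped both. Lengths are not closely matched in this wide class. Over all lengths, the 95th percentile of set-only clusters was 2261.6 bp, and the median of clusters that overlapped both was 3458 bp.

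Read the other way, the share of replicate-set clusters that were set-only was highest at scores from 0.25 to 0.3, at 57.4% of 753 clusters. It was 45.7% at scores up to 0.25 and 47.9% from 0.35 to 0.4. It then fell to 34.2% from 0.4 to 0.45, 17.7% from 0.45 to 0.5, 2.71% from 0.5 to 1 and 0.329% from 1 to 1.5. Above 1.5 it was 1.22%, or 6 of 492 clusters.

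Within the set-only clusters, the shortest scored highest. At lengths from 1001 to 1010 bp, the median over 181 clusters was 0.39, and 9.94% of them exceeded 0.5. The median was 0.38 from 1011 to 1100 bp, 0.34 from 1101 to 1300 bp and 0.32 from 1301 to 2000 bp. It was 0.36 in the 190 longer clusters, the highest of which scored 0.48. Up to 2000 bp the other replicate-set clusters fell alike, with medians of 0.41, 0.38, 0.36 and 0.32 in the same length classes. The first 2 of these medians rest on 18 and 50 clusters. Scores were often tied. Of the 2745 clusters, 863 shared their exact score with another set-only cluster, and 23 had the most frequent one, 0.33.

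**Figure D1:**
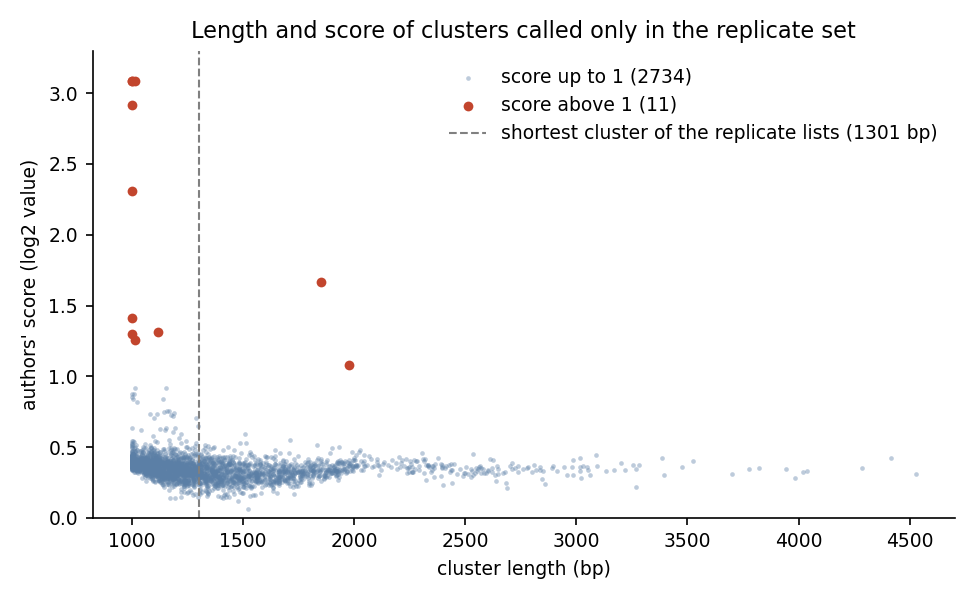
Length in bp (x axis) and the authors' score, a log2 value (y axis), of each of the 2745 set-only clusters; red points score above 1 and the dashed line marks 1301 bp, the shortest length in the replicate lists. Most points lie between 0.24 and 0.46 (5th and 95th percentiles), and 8 of the 11 above 1 sit at the left edge, at 1020 bp or less.

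The highest scores of the whole replicate-set list belonged to set-only clusters. In all, 11 of the 2012 replicate-set clusters that scored above 1 were set-only. The 4 highest scores of the list were all theirs, and clusters listed in both replicates reached 2.74 at most. A group of 3 clusters shared 1 identical score of 3.08, a ratio of 8.48. These were on 2L from 11316638 to 11317638, on 2L from 21653312 to 21654324 and on X from 6324106 to 6325106. The next were on 3L from 17510166 to 17511166 (2.91) and on X from 13895095 to 13896097 (2.31). All 5 were from 1001 to 1013 bp long, at or near the minimum of the list. The sources do not say what the score's denominator is or how 3 clusters came to the same score, so these scores need not mean strong marking. The distance to the nearest stretch covered in both replicates was 33.3, 3.57, 56.3, 1.17 and 2.44 kb, in that order. Neither replicate listed a cluster at these places, whereas 1999 of the 2012 clusters above 1 overlapped clusters of both replicates.

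The 5 longest set-only clusters scored like the rest. The longest, 4526 bp on 3R from 2219185 to 2223710, scored 0.31. The second, on X between 4367949 and 4372364, was 4416 bp long and scored 0.42. The third, on 2L between 20998842 and 21003127, was 4286 bp long and scored 0.35. The others lay on 2L between 2446331 and 2450369 (4039 bp, score 0.33) and on 3R between 15140137 and 15144154 (4018 bp, score 0.32). Only 32 exceeded 3 kb.

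Clusters on either side of the rule had like values. The 5 set-only clusters nearest to a replicate cluster lay 0, 1, 4, 6 and 6 bp from it, with scores of 0.35, 0.31, 0.35, 0.32 and 0.36. The 5 clusters left out with the shortest overlap shared 2, 2, 3, 3 and 4 bp with a replicate cluster, with scores of 0.35, 0.36, 0.29, 0.33 and 0.22. One set-only cluster touched a replicate 1 cluster with no base between and no base shared. In all, 437 lay within 500 bp of a replicate cluster.

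Most set-only clusters lay apart from the stretches that both replicates covered, rather than at their shoulders. A shoulder was taken as a cluster with at most 1 kb between it and the nearest stretch covered in both replicates. By that limit 300 were shoulders (10.9%), while 598 lay within 2 kb (21.8%) and 1172 within 5 kb (42.7%). The median distance was 6511 bp, with quartiles of 2302 bp and 15223 bp. Lying apart was not particular to set-only clusters. Clusters that overlapped 1 replicate only had median distances of 4391.5 bp (replicate 1) and 5438 bp (replicate 2). With 1 replicate list in place of both, the choice of clusters and the stretches change together. The median distance was then 3115 bp by replicate 2 alone and 4358.5 bp by replicate 1 alone, and the share within 1 kb was 22.5% and 17.3%.

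They nevertheless lay nearer to shared stretches than the open sequence does on average. As a yardstick, each cluster was placed by itself at every possible start on its own sequence, and the shares were averaged. Unlike shifts of the whole list, this does not keep the spacing between set-only clusters. No p-value was taken from it. Over all starts, shared stretches would be overlapped or lie within 1 kb in 27.6% of cases. This value is not comparable, because the rule bars overlap. Over starts that overlap no replicate cluster, 6.30% lay within 1 kb of a shared stretch, against 10.9% observed. Within 5 kb the values were 26.6% and 42.7%, and within 20 kb 61.4% and 81.4%. Barring also the sequence taken by other replicate-set clusters gave 5.55% within 1 kb and 25.6% within 5 kb. The excess was therefore not limited to the first kilobase. Open sequence includes parts to which reads may not map, and their share is not known here.

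**Figure D2:**
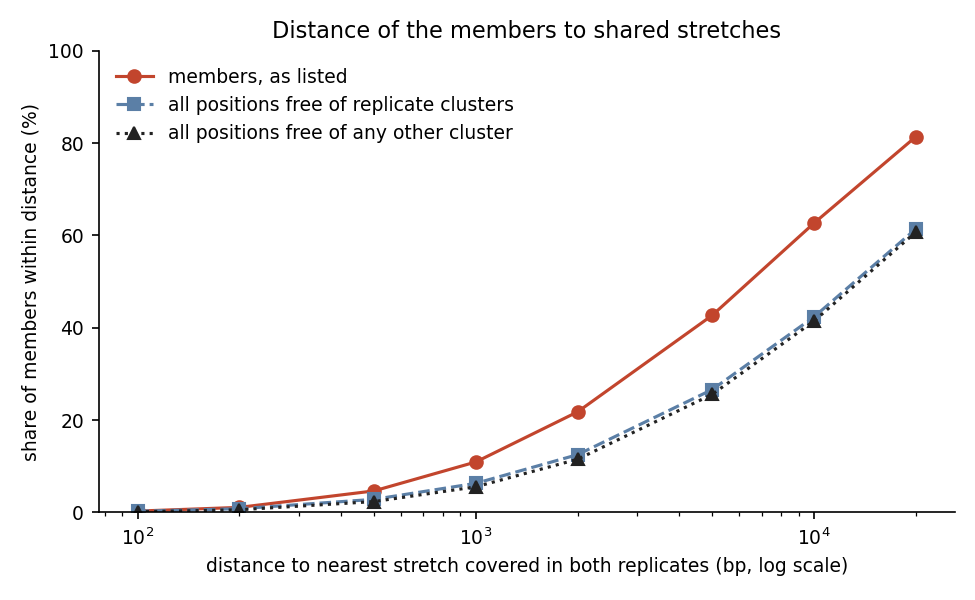
Share of the 2745 set-only clusters in percent (y axis) within a given distance in bp (x axis, log scale) of a stretch covered in both replicates, as listed (red) and averaged over all positions free of replicate clusters (blue) or of any other cluster (black). The listed clusters lie above both averages at 1 kb and beyond, with 62.7% against 42.4% and 41.5% within 10 kb.

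Shoulders and remote clusters differed little in length and score. The 300 within 1 kb had a median length of 1251.5 bp and a median score of 0.34. The 511 more than 20 kb away had medians of 1245 bp and 0.36. None of the shoulders scored above 1, and 5 of the remote clusters did, including that on the unplaced sequence U at 614.0 kb. Between these classes, 4 of the 872 clusters from 1 to 5 kb and 2 of the 1062 from 5 to 20 kb did, so there was no steady rise with distance. On the large arms, the farthest lay on 2L from 11648345 to 11649554, 119.9 kb from a shared stretch, with a score of 0.34. The next were on 3R from 3484672 to 3486323 (117.0 kb, score 0.25), on 3L between 18276629 and 18277688 (107.8 kb, 0.36), on X between 14610619 and 14612210 (106.6 kb, 0.39) and on 3L from 18273640 to 18274765 (104.8 kb, 0.46).

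Clusters that 1 replicate alone had listed were often the nearest neighbours. The median distance to the nearest stretch covered in either replicate was 2408 bp, and 761 set-only clusters (27.7%) lay within 1 kb of one. Over starts free of replicate clusters that share was 11.6%. For 53.2% the nearest stretch was listed in both replicates, although 69.2% of all stretches were. Stretches listed in replicate 2 only were nearest for 32.0% and made up 21.1% of stretches. Those of replicate 1 only were nearest for 14.8% and made up 9.74%. No placement yardstick was computed by kind of stretch. Shares of stretches by count do not give the shares that placement alone would yield. Replicate 2, the longer list, held the nearer cluster for 1536 set-only clusters and replicate 1 for 1205. The median distance was 3212 bp to a replicate 2 cluster and 4502 bp to a replicate 1 cluster.

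Distances between set-only clusters were also taken, but no yardstick of placement was computed for them. The median distance to another set-only cluster was 5626 bp, and 537 (19.6%) had another within 1 kb. The other, more numerous replicate-set clusters lay closer, with a median of 2356 bp and 31.0% within 1 kb. Read along each sequence, 1084 of the 2745 (39.5%) stood alone between clusters that a replicate had listed. Another 756 stood 2 in a row and 465 stood 3 in a row, and the longest run was 9 in a row.

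Gaps between shared stretches of intermediate size held the most set-only clusters per Mb. On the 5 large arms, 6139 gaps held 2731 set-only clusters, and 1379 gaps (22.5%) held at least 1. Density was 6.48 per Mb in gaps up to 2 kb, where a cluster of 1001 bp or more can hardly be placed, and 18.2 per Mb from 2 to 5 kb. It was 34.3 per Mb from 5 to 10 kb, 43.96 from 10 to 20 kb and 40.3 from 20 to 40 kb. It was lower in longer gaps, at 29.7 per Mb from 40 to 100 kb and 12.5 per Mb above 100 kb.

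Long gaps were still not empty. The 675 gaps above 40 kb held 1272 set-only clusters, 46.3% of all, and 249 of these gaps held 0. These gaps spanned 61.7 Mb of the 119.03 Mb of the 5 large arms, so their share of the clusters was below their share of the sequence. The largest number in 1 gap was 14, both in a gap of 111474 bp on 3R from 19243662 to 19355135 and in one of 221659 bp on 3L from 18168818 to 18390476. A gap between shared stretches can hold clusters of a single replicate as well.

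**Figure D3:**
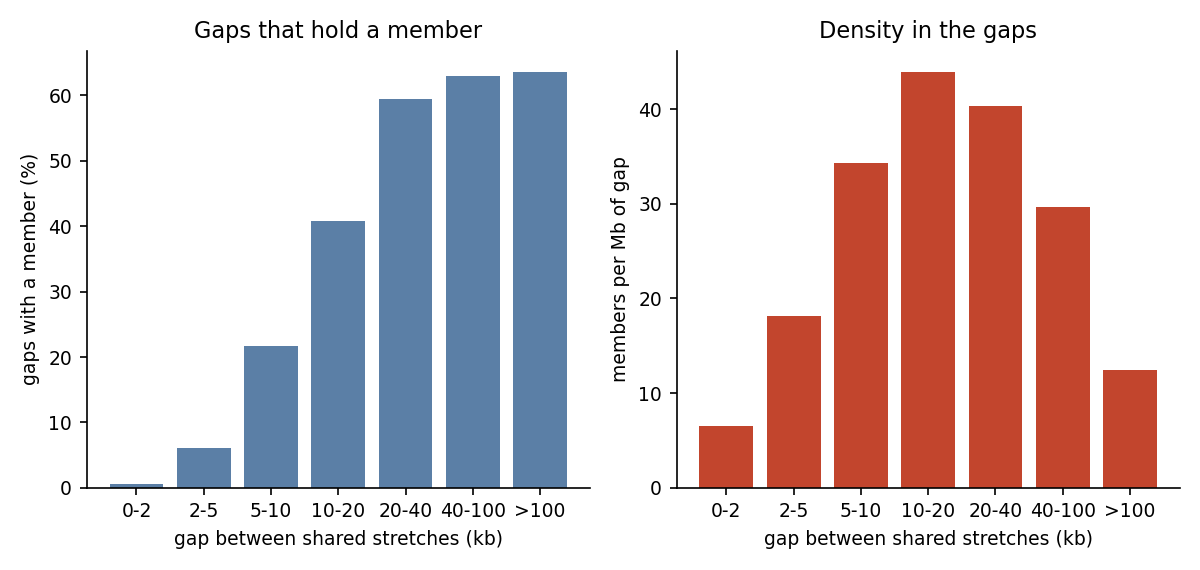
Gaps between neighbouring stretches covered in both replicates on the 5 large arms, by gap length in kb (x axes): percent of gaps that hold at least 1 set-only cluster (left) and set-only clusters per Mb of gap (right). The share of gaps reaches 63.6% above 100 kb, whereas the density peaks at 43.96 per Mb in gaps of 10 to 20 kb.

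By chromosome, the large arms held 2731 of the 2745 set-only clusters (99.5%), as they held 9967 of all 10096 replicate-set clusters. There were 666 on 3L, 605 on 3R, 531 on 2L, 480 on 2R and 449 on X. Per Mb of sequence there were 27.1 on 3L, 23.1 on 2L, 22.7 on 2R, 21.7 on 3R and 20.02 on X. Per Mb of sequence without a replicate cluster, called open sequence here, the order was 3L (34.1), 2R (30.5), 2L (28.6), 3R (27.95) and X (24.4). X was the lowest by both measures, but 3R lay closer to X than to 3L. The density on X was 0.848 times that on the 4 autosome arms together, and 0.808 times per Mb of open sequence. The other classes were also sparser on X. Clusters that overlapped 1 replicate only numbered 13.6 per Mb on X and 17.6 per Mb over the autosome arms, and those that overlapped both 37.9 and 45.3. The set-only share of replicate-set clusters was 27.98% on X and 27.3% on the autosome arms, so the lower density on X was not particular to set-only clusters.

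Split by score, X held fewer of the weaker set-only clusters than any autosome arm and more of the stronger ones. A limit of 0.35, near the median score, was chosen after the values were seen. Per Mb of open sequence, X held 6.42 clusters scoring up to 0.35, and the arms held 15.9 (2L), 16.9 (2R), 19.5 (3L) and 16.1 (3R). Above 0.35, X held 18.0 and the arms held 12.7 (2L), 13.6 (2R), 14.7 (3L) and 11.9 (3R). The ratio of X to the autosome arms therefore turned with the score, from 0.848 for all set-only clusters to 1.40 among those at or above their median score.

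Scores of the set-only clusters were higher on X across most of their range. The median was 0.39 on X, with quartiles of 0.35 and 0.43, and 0.34 on each of the 4 autosome arms. The 5th percentile was 0.26 on X and 0.23 to 0.24 on the arms. Of the X clusters, 73.7% scored above 0.35, against 43.5% on the autosome arms. The difference was also present at matched length, with medians of 0.43 and 0.37 from 1001 to 1100 bp and of 0.36 and 0.31 from 1301 to 2000 bp. It was not particular to these clusters, since all replicate-set clusters had a median of 0.48 on X and 0.41 on the autosome arms. The labels do not give the sex of the larvae. The parts of X copy number and of read depth in these values were not tested.

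**Figure D4:**
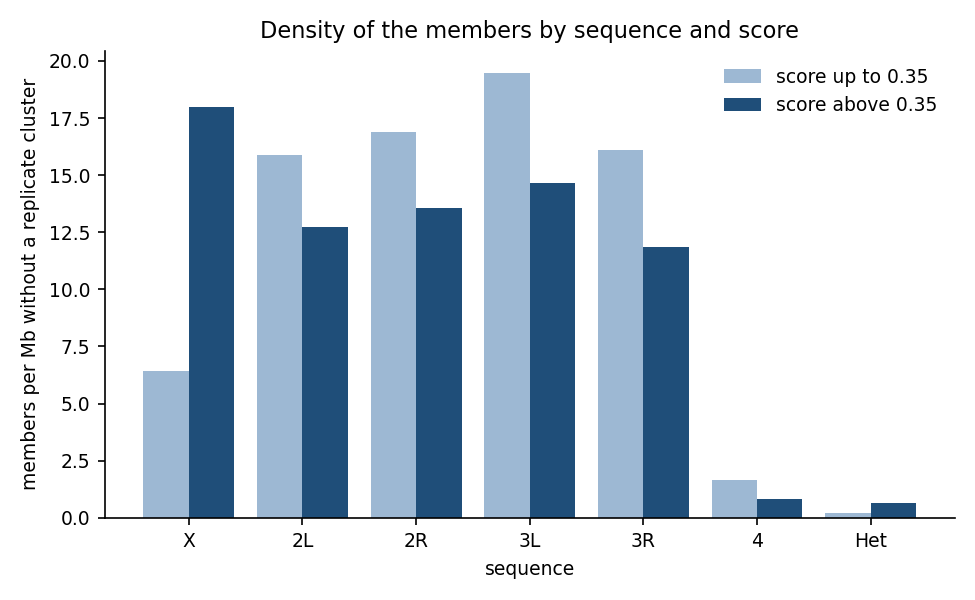
Set-only clusters per Mb of sequence without a replicate cluster (y axis) on X, the 4 autosome arms, chromosome 4 and the 6 Het sequences together, split at a score of 0.35. X has the lowest light bar of the 5 large arms (6.42) and the highest dark bar (18.0), and chromosome 4 and the Het sequences have few of either kind.

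Chromosome 4 and the heterochromatic sequences held few set-only clusters relative to clusters listed in both replicates. Chromosome 4, a small chromosome rich in heterochromatin, had 3 among its 60 replicate-set clusters (5.0%), or 2.22 per Mb. Clusters listed in both replicates stood at 34.03 per Mb there, against 45.3 on the autosome arms. Those of 1 replicate only stood at 8.14 per Mb, against 17.6. Its 3 clusters lay from 530107 to 531128 (score 0.34), from 539720 to 540911 (0.35) and from 1311745 to 1312862 (1.32). The 6 Het sequences held 8 of 52 clusters (15.4%), at 0.862 per Mb, with 4 on 3LHet, 2 on 3RHet and 1 each on XHet and YHet. Clusters of both replicates stood at 4.09 per Mb on the Het sequences. Those of 1 replicate only stood at 0.646 per Mb, so set-only clusters were not few relative to them. None was listed on 2LHet, 2RHet or Uextra.

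The unplaced sequence U held 3 set-only clusters, all stronger than most. They scored 1.08, 1.67 and 0.84. The first lay from 4925000 to 4926976, 614.0 kb from any stretch covered in both replicates, the second from 7531111 to 7532963 and the third from 9095441 to 9096581. Such sequence is a set of unjoined pieces, so distances on it say little. High scores on U were not particular to set-only clusters. All its 17 replicate-set clusters had a median score of 0.95, against 0.43 on the 5 large arms.

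Along 4 of the 5 large arms, all but 3R, set-only clusters thinned out toward the centromere. The 2 Mb nearest the centromere held 9.47 per Mb of open sequence over the 5 arms together. The arm middles held 30.5 and the telomere-side 2 Mb 38.5. On X, 2L, 2R and 3L the centromere side held 8.59, 5.52, 5.49 and 3.17 per Mb. On 3R it held 28.4, close to the 26.8 of that arm's middle. The telomere side exceeded the middle on X (28.9 against 25.9), 2L (39.7 against 30.3), 3L (53.5 against 36.2) and 3R (41.98 against 26.8), but not on 2R (28.9 against 34.2). Of the replicate-set clusters at the centromere sides, 18.6% were set-only, compared with 27.98% in the middles and 26.5% at the telomere sides. Coverage in both replicates was also lower at the centromere side than in the middle on X (5.37% against 13.0%) and 2L (6.91% against 13.1%). The same held on 2R (6.52% against 18.6%) and 3L (3.82% against 14.0%), but not on 3R (18.9% against 15.8%). Thinning toward the centromere was therefore not particular to set-only clusters.

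Density was next compared between sparse and dense parts of the arms. The 1189 full bins of 100 kb were ranked by the share covered in both replicates, which is a value the rule itself used. Per Mb of bin, the 397 sparsest bins held 19.1 set-only clusters, the 396 intermediate bins 27.7 and the 396 densest bins 22.2, so neither extreme held the most. The ratio of dense to sparse was 1.16. Dense bins leave less room, with 37.4% of their sequence under a replicate cluster against 5.97% in sparse bins. Per Mb of open sequence the values were 20.3, 34.6 and 35.4, a ratio of 1.75.

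The low density was concentrated in the sparsest bins. Per Mb of open sequence, the lowest sixth, with a mean of 0.55% covered in both replicates, held 12.1 set-only clusters, and 58.3% of its bins held 0. The second sixth held 29.2, and sixths 3 to 6 held from 34.5 to 35.9. Each of the 5 arms had more per Mb of open sequence in its dense than in its sparse bins: 32.2 against 17.1 on X, 33.2 against 21.02 on 2L, 38.5 against 21.5 on 2R, 43.0 against 21.4 on 3L and 30.4 against 20.99 on 3R. Per Mb of bin, 3R went the other way, with 18.7 in dense and 19.6 in sparse bins.

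**Figure D5:**
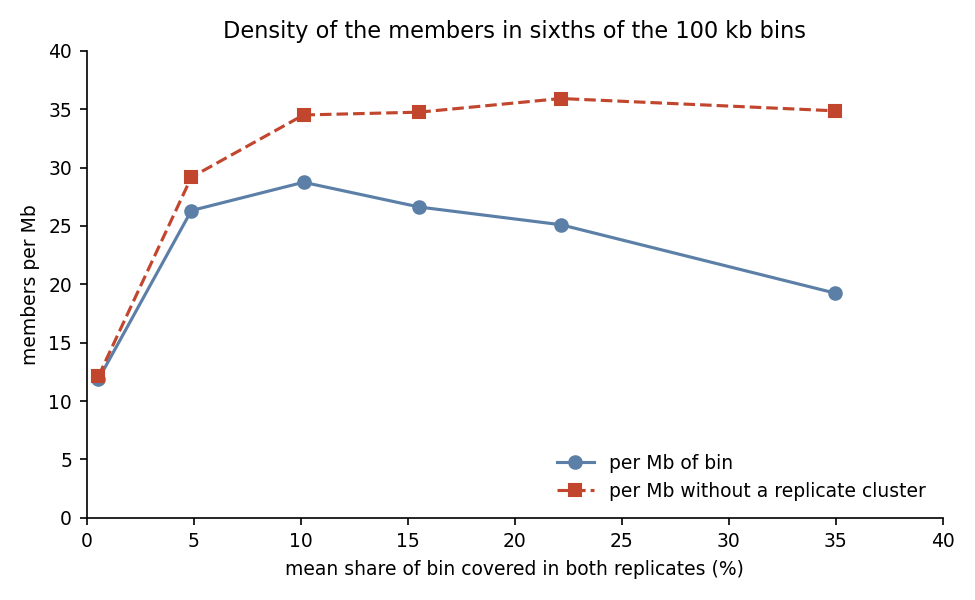
Set-only clusters per Mb (y axis) in sixths of the 1189 bins of 100 kb on the large arms, ordered by the mean percent of the bin covered in both replicates (x axis), per Mb of whole bin (blue) and per Mb without a replicate cluster (red). The red line rises from 12.1 to 34.5 over the first sixths and then stays between 34.5 and 35.9, while the blue line falls to 19.2 in the densest sixth.

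Set-only clusters of sparse and dense bins were alike in themselves. The median score was 0.36 in the sparse bins and 0.34 in the dense bins, and the median length 1278 bp and 1259 bp. The median distance to a shared stretch was 15781 bp and 3466.5 bp. The bins were ranked by coverage in such stretches, so a difference in this distance is built in. Of the 8 on the large arms that scored above 1, 5 lay in sparse, 1 in intermediate and 2 in dense bins.

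Some bins were crowded. The fullest held 13 set-only clusters among 21 replicate-set clusters, on 2R from 15900001 to 16000000, where 3.89% was covered in both replicates. The next held 12 of 25, on 3L from 8600001 to 8700000 (11.5% covered). In 4 bins there were 11, of which the first by name are on 2L from 18300001 to 18400000 (4.41% covered), on 3R from 9600001 to 9700000 (11.4%) and on 3R from 26100001 to 26200000 (10.05%). Their median scores ran from 0.34 to 0.37. At the other end, 316 bins (26.6%) held none.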

How the data were processed

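Per the labels, ChIP and input libraries were made from chromatin of whole larvae, and Bowtie 0.12.7 is the one tool named, per the submitters' processing notes. The authors deposited lists of regions of significant enrichment, 1 per ChIP replicate and 1 for the replicate set, with positions on FlyBase release 5, per the file headers. How regions were called, at which threshold and against which input, and how the replicate-set list was made, is not stated. The authors' deposited score was taken as a log2 value from its ties (denominators up to 5000, relative tolerance 1e-11). No input file was used here, and depth is unknown.

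Starts and ends were read as 1-based and inclusive, although 1 cluster starts at 0. Overlap meant 1 bp or more. Distances count the bases between a cluster and a stretch. Bins took clusters by their midpoint. Interval steps were tested on simulated data. Python 3.11.15, numpy 2.4.6, pandas 2.3.3 and SciPy 1.17.1 were used.

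Members and lists were chosen with earlier results of these data known. Named regions were the 5 highest-scoring and 5 longest set-only clusters, the 5 farthest on the large arms, the 5 on each side of the rule and the 5 fullest bins. The other clusters above 1 and those of small sequences were named after their values were seen. No test was run, since 1 replicate-set list exists and clusters and bins are not replicates.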

Additional observations from a re-analysis of the deposited data

How the results depend on the processing

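No paired analysis was possible because no result comes from a test and the input samples, which share replicate numbers with the ChIP samples, have no list used here. Of 67 recomputed values, 25 stayed within the 95% binomial interval of the reported value (for the number of clusters, within 1.5 times), 41 moved beyond it and 1 reversed. These intervals cover counting error only.

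The reversal was that of the X to autosome density ratio, 1.40 for clusters at or above the median score. That selection by construction left 1373 clusters (18.3% of the list so selected), with a median length of 1157 bp, a median score of 0.39, a distance of 7221 bp, 9.03% within 1 kb and a dense to sparse ratio of 1.02. Keeping lengths of 1301 bp or more left 1234 (14.8%), with medians of 1570 bp and 0.33. Using the 50% of each replicate list with the highest scores gave 6253 clusters (61.9%), with medians of 1738 bp and 0.36, a distance of 16414 bp, 5.58% within 1 kb and an X ratio of 0.685. Requiring 50% of a cluster to be covered for overlap gave 28.8%, 1279 bp and 12.3% within 1 kb. Requiring a gap of more than 500 bp gave 22.9%, a distance of 7436 bp, 3.99% within 1 kb and a dense to sparse ratio of 1.05.

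Without replicate 1 or replicate 2, the number was 3419 or 4098 (33.9% to 40.6%). The median length was then 1347 to 1392 bp, the score 0.35 in both, the distance 3115 to 4358.5 bp and the share within 1 kb 17.3% to 22.5%. The X ratio was 0.801 to 0.861 and the dense to sparse ratio 1.40 to 1.48. Stretches covered in either replicate gave 2408 bp and 27.7% within 1 kb. Limits of 500 bp and 2 kb gave 4.66% and 21.8%. Per open sequence the dense to sparse ratio was 1.75. For these values the cause was not tested. Added after seeing the data, leaving out clusters above 0.5 gave an X ratio of 0.81.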
